A study of Mus musculus with 78 samples.

Results

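HA-EZH1 chromatin immunoprecipitation with sequencing (ChIP-seq) at 20 h was compared with the same profile at 16 h, to see where the tagged enzyme gained and lost sites within 4 h of the muscle circadian cycle. Members were chosen by peak presence in the 6 lists, 3 at 20 h and 3 at 16 h. All peaks were joined where they overlapped by at least 1 bp, and a region or promoter belonged to the 20 h only group if all 3 libraries of 20 h and no library of 16 h had a peak there, and to the 16 h only group in the opposite case. Of 33247 regions, 1737 were 20 h only (5.22%), 949 were 16 h only (2.85%) and 298 had a peak in all 6 libraries (0.896%). A promoter was the 3 kb on either side of a transcription start site (TSS), taken as the first base of the gene record on its strand. Other transcript starts within a gene were not used, so a region beyond 3 kb of a TSS may lie at one of them. Of 53843 annotated genes, 254 promoters were 20 h only (0.472%), 1114 were 16 h only (2.07%) and 110 had a peak in all 6 libraries (0.204%). For the 21755 protein-coding genes these counts were 68 (0.313%), 869 (3.99%) and 63 (0.29%).

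The cells at both times were C2C12, a mouse myoblast line, which had been differentiated into myotubes and synchronized by a brief pulse of concentrated horse serum (serum shock). Times are hours after that pulse. The labels name neither an antibody nor a modified line for the HA libraries. The paper describes an EZH1α-Flag-HA stable line, a shEzh1 (Ezh1 knockdown) rescue line made with an EZH1α-Flag-HA vector, and an inducible shEzh1 line carrying TET-HA-EZH1α. It does not say which was used, so the bound protein is taken here as an exogenous HA-tagged EZH1α, and a knockdown background is possible. The 6 libraries belong to 18 HA-EZH1 libraries taken every 4 h between 12 h and 32 h, beside libraries of Bio-EZH1 (biotinylated EZH1α), of SUZ12 and of H3K27me3 at the same times. In bulk chromatin, a signal in fewer cells and a weaker signal per cell cannot be told apart.

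EZH1 is one of the alternative catalytic subunits of Polycomb repressive complex 2 (PRC2), which methylates lysine 27 of histone H3, and SUZ12 is the subunit that holds the complex together. H3K27me3, the trimethylated form, marks silent genes, chiefly CpG-rich promoters of developmental regulators such as the Hox genes. In cells that no longer divide, such as myotubes, EZH1 is the prevailing catalytic subunit, and it has been found at active as well as at silent genes in muscle.

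The sequences under the summits differed in CpG content. The 2 promoters and the region beyond 3 kb of a TSS with the highest mean fold enrichment in each group are shown first. The comparison turns on such sites. Fold enrichment is the ratio of reads to local background that the peak caller gives at a summit, the highest point of a peak. Each stretch below is from the plus strand of GRCm38.p6 (RefSeq) and centred on a summit. Capitals mark a motif described further on (TGANTCA in Nxpe4, the ZNF143 word in Pafah2 and the GC box in Foxd1 and Ctdsp2). The first 3 belong to sites bound at 20 h only and the last 3 to sites bound at 16 h only.
Nxpe4 promoter, chr9:48161945-48162045: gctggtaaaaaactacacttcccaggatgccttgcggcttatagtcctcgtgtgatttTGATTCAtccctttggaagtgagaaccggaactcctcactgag
Pafah2 promoter, chr4:134396261-134396361: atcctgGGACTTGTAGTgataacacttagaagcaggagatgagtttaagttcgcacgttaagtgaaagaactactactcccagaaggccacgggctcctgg
Region nearest Tbc1d9, chr8:83066474-83066574: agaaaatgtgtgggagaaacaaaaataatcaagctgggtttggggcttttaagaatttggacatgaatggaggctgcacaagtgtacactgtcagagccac
Foxd1 promoter, chr13:98355620-98355720: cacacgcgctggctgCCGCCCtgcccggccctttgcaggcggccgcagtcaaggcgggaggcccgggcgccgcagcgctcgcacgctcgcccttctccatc
Ctdsp2 promoter, chr10:126978822-126978922: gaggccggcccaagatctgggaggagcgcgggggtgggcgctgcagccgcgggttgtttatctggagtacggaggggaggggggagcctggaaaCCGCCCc
Region nearest Chmp4b, chr2:154656857-154656957: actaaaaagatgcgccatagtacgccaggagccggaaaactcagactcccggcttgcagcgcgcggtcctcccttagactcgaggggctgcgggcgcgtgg
The Nxpe4 and Pafah2 stretches hold 3 CpG dinucleotides each and the Tbc1d9 stretch holds 0, against 14 in the Foxd1 stretch, 8 in the Ctdsp2 stretch and 11 in the Chmp4b stretch.

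At 20 h the profile held more peaks than at 16 h, and they lay farther from a TSS. The lists held 9809, 16365 and 9124 peaks at 20 h, against 5234, 5167 and 4621 at 16 h. The groups did not overlap, and the mean ± SD over 3 libraries was 11766 ± 3998 peaks at 20 h, against 5007 ± 336 at 16 h, a ratio of 2.35 that was 1.89 without replicate 2 of 20 h. Peaks that reached within 3 kb of a TSS made up 10.5%, 9.64% and 10.9% of the lists at 20 h, against 36.8%, 30.8% and 41.7% at 16 h, a difference of -26.1 percentage points with no overlap. Per library there were 1202 ± 326 such peaks at 20 h, against 1816 ± 193 at 16 h (SD over 3 libraries). Beyond 3 kb there were 10564 ± 3672 at 20 h, against 3192 ± 453 at 16 h, so the surplus of peaks at 20 h lay away from promoters while promoter peaks were fewer. Promoters with at least 1 peak numbered 1066, 1547 and 1007 at 20 h, against 2520, 2050 and 2533 at 16 h.

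Each of these differences had p = 0.1 in a two-sided exact permutation test, the smallest value that 3 libraries against 3 can give, so no difference between the times could pass 0.05. Over the 17 measures compared per library, the exact p adjusted by the Benjamini-Hochberg method was also 0.1 for each. The methods speak of biological replicates, but the labels do not say that they came from separate cultures, and the p-values measure only the spread between these libraries. Sequencing depth per library was not given in the sources used here.

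**Figure D1:**
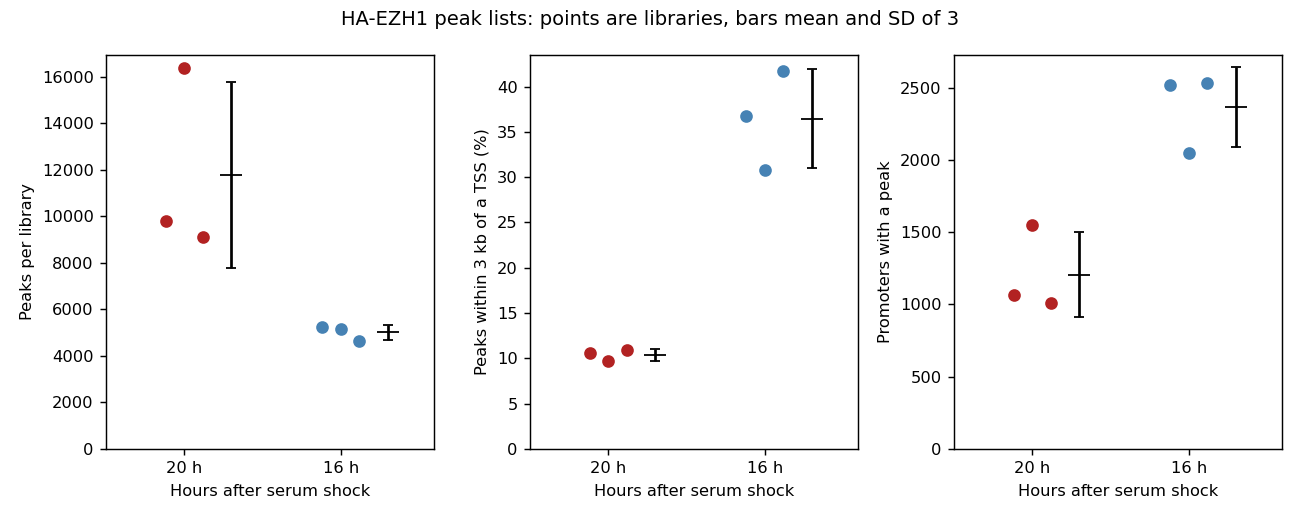
Peaks per library (left), share of peaks within 3 kb of a TSS in % (middle) and number of promoters with a peak (right) for HA-EZH1 at 20 h and 16 h, where points are libraries and bars the mean and SD of 3. The 20 h libraries hold 9124 to 16365 peaks, all above the 16 h libraries, and have the smaller share near a TSS in every library.

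The distance of summits from the nearest TSS showed the same contrast. Summits within 0.1 kb of a TSS made up 1.03%, 0.64% and 0.89% of the 20 h lists, against 7.60%, 6.25% and 9.02% of the 16 h lists. The median distance averaged 20260 ± 501 bp at 20 h, against 9615 ± 2923 bp at 16 h (SD over 3 libraries). Peaks in introns made up 45.5% ± 0.682 at 20 h and 31.5% ± 2.61 at 16 h, and intergenic peaks 42.0% ± 0.942 at 20 h and 29.4% ± 2.84 at 16 h, in both cases without overlap between the libraries. The median peak length was 484, 510 and 515 bp at 20 h, against 480, 481 and 479 bp at 16 h, a difference of 23 bp. With the same number of peaks in each library, it was 155 bp.

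**Figure D2:**
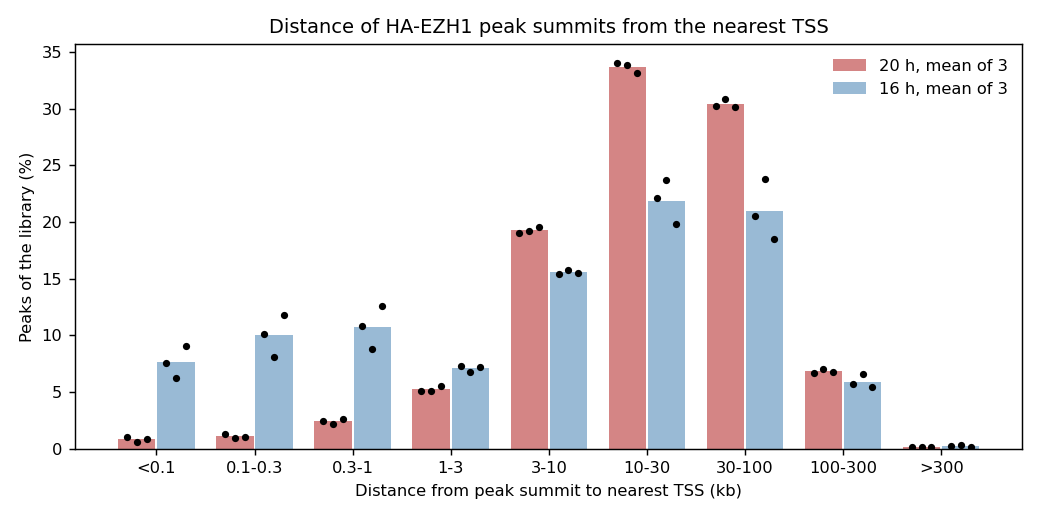
Share of peaks of a library (%) by the distance of the summit from the nearest TSS (kb) for HA-EZH1 at 20 h (left bar of each pair) and 16 h (right bar), where bars are means of 3 libraries and points are libraries. In each of the 3 classes under 1 kb the 20 h libraries lie below the 16 h libraries, and between 3 kb and 100 kb they lie above them.

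The 2 times also differed in how low the fold enrichment of a deposited peak reached, which bears on every count of lost promoters. The median fold enrichment was 3.20, 3.02 and 3.28 at 20 h, against 2.85, 2.89 and 2.82 at 16 h. The difference of 0.312 was 0.784 with the same number of peaks in each library. The 5th percentile was 2.45, 2.45 and 2.45 at 20 h, against 1.92, 1.96 and 1.90 at 16 h, so that weaker sites entered the lists at 16 h. Of the 1114 promoters bound at 16 h only, 548 (49.2%) had a fold enrichment above 2.45 in all 3 libraries of 16 h, and 222 were above 3.28, the highest of the 20 h medians. Of the 254 promoters bound at 20 h only, 252 exceeded 1.96 in all 3 libraries of 20 h. With peaks under 2.45 left out of all 6 lists, an alternative chosen after seeing the data, 246 promoters were 20 h only and 572 were 16 h only, and the share within 3 kb still differed by -16.9 percentage points. The difference in the number of promoters with a peak per library was then -171, against -1161 with all peaks, and its exact permutation p was 0.4.

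The regions of each group were unlike in place and size. Of the 1737 regions bound at 20 h only, 213 (12.3%) reached within 3 kb of a TSS and 69 held one, against 798 (84.1%) and 523 of the 949 regions bound at 16 h only. The median region was 1262 bp long in the 20 h only group and 822 bp in the 16 h only group. 45.0% of the 20 h only regions lay in introns and 42.4% between genes, against 8.22% and 5.58% of the 16 h only regions. The 30263 regions in neither group and without a peak in all 6 libraries stood near the 20 h only group in place. Of them, 13.1% reached within 3 kb of a TSS, 43.6% lay in introns and 41.0% between genes. With the same number of peaks in each library the order of the counts turned round, with 663 regions bound at 20 h only and 963 at 16 h only. Of the 298 regions bound at both times, 29.5% were within 3 kb of a TSS, and their median length was 2182 bp. Their median fold enrichment was 3.94 at 20 h and 3.31 at 16 h, and in 33.9% of them all 3 libraries of 20 h were above all 3 of 16 h, with the opposite in 8.39%. Single-library regions were the rule outside these groups, since 24090 of the 33247 regions (72.5%) came from 1 library, 9934 of them from replicate 2 of 20 h.

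Chromosome 15 carried more of the 20 h peaks than its length would give. It makes up 3.95% of the genome and held 286 of the 1737 regions bound at 20 h only (16.5%), against 41 of the 949 bound at 16 h only (4.32%). It also held 11.4% of the 298 regions bound at both times and 15.9% of the 30263 remaining regions, close to the 20 h only share. The density of peaks on it over that on the rest of the genome was 4.76 ± 0.193 at 20 h, against 3.39 ± 0.333 at 16 h for HA-EZH1 (SD over 3 libraries). For Bio-EZH1 it was 1.30 ± 0.0304 at 20 h and 1.24 ± 0.0168 at 16 h, for H3K27me3 0.963 ± 0.00386 at 20 h and 0.956 ± 0.0166 at 16 h, and for SUZ12 1.53 ± 0.125 at 20 h and 2.98 ± 0.0881 at 16 h. Without chromosome 15, also chosen after seeing the data, 1451 regions were 20 h only and 908 were 16 h only, and the share within 3 kb of a TSS differed by -28.5 percentage points.

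Among the promoters bound at 20 h only, the 8 protein-coding genes with the highest mean fold enrichment had no HA-EZH1 peak in any library of 16 h. Nxpe4 (chromosome 9, 48162023 to 48400025) had fold enrichments of 7.49, 4.69 and 6.05 at 20 h and a peak in all 3 libraries of 24 h. Pafah2, which encodes an acetylhydrolase of platelet-activating factor (chromosome 4, 134396320 to 134427413), had 5.58, 4.48 and 3.99 at 20 h. It was bound in all 3 libraries of 12 h, of 28 h and of 32 h as well, but in only 1 of 24 h. Tm4sf1, which encodes a membrane protein of the tetraspanin superfamily (chromosome 3, 57285611 to 57301988), had 5.73, 5.11 and 3.18, at a summit just outside the window. Ang2 and Ear14, ribonuclease genes on chromosome 14 (51195324 to 51199148 and 51203391 to 51204338), share a peak of 5.10, 5.02 and 3.79 that lies between them. Ccl8, which encodes a chemokine for monocytes (chromosome 11, 82115185 to 82116799), had 4.31, 4.47 and 4.84, the narrowest spread of the 8. Emp1, which encodes an epithelial membrane protein (chromosome 6, 135362545 to 135383173), had 4.34, 5.01 and 3.93, and the zinc finger gene Zfp273 (chromosome 13, 67813740 to 67827002) had 5.77, 4.09 and 3.37.

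The 8 highest promoters bound at 16 h only, chosen in the same way, all had larger means than these, between 7.39 and 11.2 against at most 6.08. Foxd1, which encodes a forkhead factor of the kidney stroma (chromosome 13, 98354242 to 98359305), had fold enrichments of 11.8, 10.4 and 11.4 at 16 h. Ctdsp2, which encodes a small C-terminal domain phosphatase (chromosome 10, 126978717 to 126999975), had 9.09, 8.54 and 8.86. Snx16, which encodes an endosomal sorting nexin (chromosome 3, 10417817 to 10440102), had 9.37, 7.03 and 8.80. These are strong sites, far above the 5th percentile at either time, and all 3 had a peak in all 6 libraries of 12 h and 32 h and in none of 24 h or 28 h. Tcp11l1 (chromosome 2, 104657288 to 104712169) had 8.77, 7.95 and 9.05 at 16 h, and Ccdc124 (chromosome 8, 70868227 to 70873935) had 8.40, 6.71 and 7.06. Gmpr2, which encodes a GMP reductase (chromosome 14, 55671941 to 55679200), and Nedd8, which encodes a ubiquitin-like modifier (chromosome 14, 55662263 to 55672124), start back to back and share a single peak of 7.19, 7.85 and 7.79, so its gene cannot be named. Bahcc1 (chromosome 11, 120232947 to 120292296), whose product holds a chromatin-reading BAH domain, had 7.31, 7.37 and 7.81, at a summit placed -1388 bp from the TSS (upstream), and with a promoter window of 1 kb it was in neither group.

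Some promoters kept a peak throughout while its height differed. The promoter of 2610001J05Rik (chromosome 6, 13867735 to 13871518) had fold enrichments of 21.0, 16.4 and 15.2 at 20 h, against 3.42, 3.27 and 3.50 at 16 h, a ratio of 5.17. Nudt13, which encodes a Nudix hydrolase (chromosome 14, 20294697 to 20317578), had 11.7, 11.0 and 11.4 at 20 h, against 3.01, 3.71 and 3.83 at 16 h, a ratio of 3.23. Mkks, which encodes a chaperonin-like protein (chromosome 2, 136873780 to 136891389) and starts at the same base as AL731706.1, had 6.57, 6.94 and 6.73 at 20 h, against 5.19, 6.56 and 6.14 at 16 h, a ratio of 1.13. Over the 110 promoters bound at both times, all 3 libraries of 20 h were above those of 16 h in 35 and below them in 30, and the median fold enrichment was 3.78 at 20 h and 3.64 at 16 h. The promoters were thus split almost evenly, unlike the regions bound at both times.

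**Figure D3:**
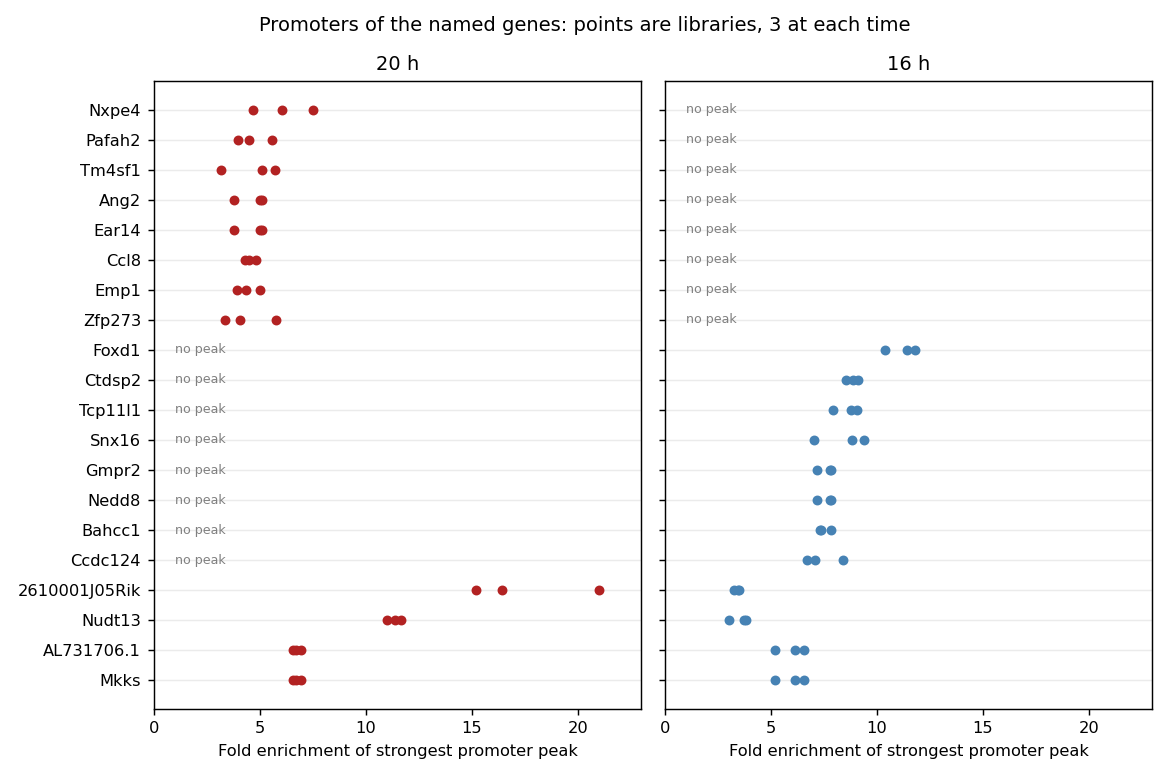
Fold enrichment of the strongest HA-EZH1 peak in the promoters of the 20 genes with the highest means in each group, at 20 h (left) and 16 h (right), where points are libraries. The promoter of 2610001J05Rik reaches 21.0 at 20 h against at most 3.50 at 16 h, and the 16 h only genes from Foxd1 to Ccdc124 have no peak at 20 h and lie between 6.71 and 11.8 at 16 h.

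Away from promoters, the strongest sites bound at 20 h only lay in introns and between genes. The highest mean was at chr8:83065245-83067152, in an intron of Rnf150 and 98200 bp from the TSS of Tbc1d9, with fold enrichments of 5.70, 5.45 and 5.79. A region at chr15:62328224-62329616 had 6.23, 3.77 and 6.74, and its nearest protein-coding gene was Myc, the growth regulator, 342833 bp away. A region at chr2:84633597-84635977 within Ctnnd1, which encodes the cadherin-binding protein p120 catenin, had 4.82, 6.36 and 5.05. An intron of Lifr, which encodes a cytokine receptor, held one at chr15:7117750-7119285 with 5.42, 5.91 and 4.66, and the fifth, near Zfp697 at chr3:98373403-98377039, had 4.94, 5.19 and 5.70. The regions near Myc and Zfp697 and those in Ctnnd1 and Lifr had a peak in all 3 libraries of 24 h, and the one in Rnf150 in 2 of them. Regions of the 20 h only group also stood in clusters, chosen after their values were seen. There were 18 nearest to Abcc12 over 379 kb of chromosome 8 and 14 nearest to Asap1 over 333 kb of chromosome 15. Another 11 lay nearest to Thbs1 over 373 kb of chromosome 2. At 20 h all peaks of a library averaged 7.13 per Mb on chromosome 8, 18.5 on chromosome 15 and 4.41 on chromosome 2. The share of all regions in these spans is not given, so clustering particular to the group is not shown.

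The strongest regions bound at 16 h only and beyond 3 kb of a TSS were within or near genes of varied function. An intron of Chmp4b, which encodes a subunit of the membrane-cutting ESCRT complex, held a region at chr2:154656506-154657116 with fold enrichments of 6.83, 7.01 and 8.14. At 32 h the same region had 17.8, 16.5 and 16.4. The region nearest Acot11, an acyl-CoA thioesterase gene, at chr4:106839914-106840506 had 7.27, 5.69 and 6.84 at 16 h, and that in an exon of Rtn2, a reticulon gene, at chr7:19295646-19296169 had 6.43, 5.32 and 5.42. One in Pprc1 nearest to Ldb1 (chr19:46056134-46057251) had 5.55, 5.57 and 5.81, and one over an exon of Nkx2-5 (chr17:26838226-26840826) had 5.65, 5.40 and 5.81. All 5 had a peak in every library of 12 h and 32 h and in none of 24 h. Around Foxf1, a forkhead gene of the visceral mesoderm, 6 regions of the 16 h only group lay within 16.2 kb, a cluster singled out after its values were seen. The share of all regions there is not given either.

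Developmental regulators, the classical targets of PRC2, had HA-EZH1 promoter peaks at 16 h and none at 20 h. Of 73 developmental transcription factor genes, 0 promoters were 20 h only and 17 (23.3%) were 16 h only, beside 0.313% and 3.99% of all protein-coding genes. Per library, 0, 0 and 0 of the 73 had a peak at 20 h, against 22, 23 and 27 at 16 h. Tal1, which encodes a factor of blood development (chromosome 4, 115056426 to 115071755), had fold enrichments of 6.10, 6.09 and 6.11 at 16 h. Lbx1, which encodes a factor of migrating limb muscle precursors (chromosome 19, 45232684 to 45235812), had 5.03, 4.05 and 3.96, and Nkx2-5, which encodes a heart factor (chromosome 17, 26838664 to 26845009), had 4.73, 4.44 and 3.55. Pax2, a kidney regulator (chromosome 19, 44756045 to 44837871), had 3.86, 3.70 and 3.99. The other 13 were Foxa1, Foxf1, Gata6, Gbx2, Gsc, Lhx1, Lhx2, Neurog1, Neurog2, Otp, Pax5, Pax8 and Sox2, and the mean fold enrichment over all 17 ran from 2.30 to 6.10 with a median of 2.83, against 2.75 for all promoters bound at 16 h only.

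The Hox genes, which pattern the body axis, gave the same picture. Of 39 Hox promoters, 0 were 20 h only and 9 (23.1%) were 16 h only, beside 0.313% and 3.99% of all protein-coding genes. Per library, 0, 0 and 0 had a peak at 20 h, against 12, 9 and 11 at 16 h. The 9 were Hoxb2, Hoxb4, Hoxb5, Hoxb7, Hoxb8, Hoxb9, Hoxb13, Hoxd9 and Hoxd10. Hoxb2 (chromosome 11, 96350525 to 96354012) had 3.35, 3.39 and 3.80 at 16 h, and Hoxd9 (chromosome 2, 74697727 to 74700208) had 3.46, 3.35 and 3.52. Hoxb7 and Hoxb8 lie next to each other and share a peak in replicates 1 and 3, so neighbouring promoters are not independent sites. Pax7, the regulator of muscle stem cells (chromosome 4, 139737062 to 139833528), had 5.76, 4.55 and 6.17 at 16 h. It was the only 16 h only promoter among 15 myogenic regulators (6.67%), near the 3.99% of all protein-coding genes. Myod1, Myf5, Myf6 and Myog had no promoter peak in any of the 6 libraries.

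Genes of mitochondria and of protein turnover were also among the promoters bound at 16 h only. Of 75 mitochondrial ribosomal protein genes, 1 promoter, that of Mrpl24, was 20 h only (1.33%) and 14 (18.7%) were 16 h only, beside 0.313% and 3.99% of all protein-coding genes. Per library, 1, 2 and 2 of them had a peak at 20 h, against 24, 16 and 19 at 16 h. Mrpl47 starts beside Ndufb5, which encodes a subunit of respiratory complex I, and their shared peak (chromosome 3, genes at 32725397 to 32737605 and 32736990 to 32751566) had 6.71, 6.47 and 5.95. Mrpl19 (chromosome 6, 81957851 to 81965958) had 5.65, 5.49 and 5.43. Of 72 respiratory chain and ATP synthase genes (Atp5o is annotated as 2 of them), 1 promoter (Cox7b) was 20 h only and 7 (9.72%) were 16 h only, among them Ndufa3 of complex I with 4.07, 4.64 and 5.09 and Uqcrh of complex III with 4.33, 4.05 and 3.80. Uqcr10, another complex III gene (chromosome 11, 4701973 to 4704342), kept a peak at both times with 3.60, 3.25 and 3.23 at 20 h, against 6.15, 6.34 and 5.79 at 16 h. Of 31 proteasome subunit genes, 0 were 20 h only and 5 (16.1%) were 16 h only, led by Psmb5, a catalytic subunit (chromosome 14, 54614119 to 54618022), with 4.86, 5.12 and 4.81.

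Other housekeeping lists held fewer members. The promoters bound at 16 h only numbered 3 of 54 translation initiation factor genes (Eif1, Eif2b4 and Eif3e) and 2 of 30 splicing factor genes (Hnrnpa2b1 and U2af1), with 0 bound at 20 h only in each list. Their shares, 5.56% and 6.67%, stood near the 3.99% of all protein-coding genes. Among 67 replication-dependent histone genes, 32 cell cycle and DNA replication genes, 12 PRC2 genes and 19 PRC1 genes, 0 promoters were in either group. Of 365 zinc finger protein genes, 5 were 20 h only (Zfp182, Zfp273, Zfp300, Zfp35 and Zfp960) and 5 were bound at both times, 1.37% each, beside 0.313% and 0.29% of all protein-coding genes. The 14 bound at 16 h only (3.84%) stood at the 3.99% of all protein-coding genes. The 5 bound at both times included Zfp72, with 7.03, 5.53 and 7.19 at 20 h, against 2.99, 2.91 and 3.18 at 16 h.

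Few muscle genes had promoter peaks at either time. Of 30 muscle structural genes, 1 promoter was 20 h only (3.33%) and 0 were 16 h only, beside 0.313% and 3.99% of all protein-coding genes. Per library, 2, 2 and 2 of the 30 had a peak at 20 h, against 2, 3 and 3 at 16 h, so the list did not lean to 20 h. The 20 h only promoter was that of Myh1, which encodes a fast myosin heavy chain (chromosome 11, 67200052 to 67224575), with fold enrichments of 2.92, 3.10 and 3.27. Ttn, which encodes the sarcomere spring titin (chromosome 2, 76703980 to 76982547), had 3.19, 4.52 and 4.53 at 20 h and missed the group because replicate 2 of 16 h had a peak of 2.03. Acta1, Ckm, Des, Mef2c and Myh3 had no promoter peak in any of the 6 libraries. Outside the list, and singled out after their values were seen, were Musk, which encodes the receptor kinase of the neuromuscular junction (chromosome 4, 58285960 to 58374303), with 4.01, 3.85 and 3.69 at 20 h, Klhl41, a gene of myofibril assembly (chromosome 2, 69670120 to 69684230), with 2.21, 3.38 and 3.50, and Cavin4, a gene of muscle caveolae (chromosome 4, 48663514 to 48673502), with 3.21, 4.03 and 2.97. The adhesion gene Vcam1 (chromosome 3, 116109949 to 116129688), chosen in the same way, had 5.73, 4.35 and 2.94, and Ifng, the interferon gamma gene (chromosome 10, 118441046 to 118445892), had 3.13, 3.15 and 3.97. None of these 5 had a peak of another profile at 20 h or 16 h, and Klhl41 and Ifng had no HA-EZH1 promoter peak at any other time.

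The core clock genes had no promoter peak at 20 h and few at 16 h. Per library, 0, 0 and 0 of the 25 genes had a peak at 20 h, against 3, 4 and 3 at 16 h. In the groups, 0 promoters were 20 h only and 1 (4%) was 16 h only, beside the 3.99% of all protein-coding genes. It was Bhlhe41, which encodes a repressor of the clock activators (chromosome 6, 145858243 to 145865558), with 2.55, 2.35 and 2.12. Arntl (Bmal1), Clock, Per1, Per2, Cry1 and Dbp had no promoter peak in any of the 6 libraries, nor had the cyclin gene Ccnd1. Arntl, Per1 and Per2 had none at the other times either. From its HA-tagged EZH1α ChIP-seq, the paper reports that the protein associates directly with Bmal1, Per1 and Per2. The counts here cover only listed peaks within 3 kb of a TSS. At 16 h Npas2 had a peak in 2 libraries and Bhlhe40, Rora, Csnk1d, Nfil3 and Nr1d1 in 1 each, with fold enrichments between 1.72 (Nr1d1) and 2.50 (Rora). The promoter of Ezh1 itself had 0 peaks in the 6 libraries, and the body of the gene (chromosome 11, 101191115 to 101226463) had 1 peak each in replicates 1 and 3 of 20 h, with fold enrichments of 2.88 and 3.11. The tagged copy is exogenous, so a peak on the endogenous gene does not check the labels.

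Outside protein-coding genes, the promoters bound at 20 h only included 52 long intergenic noncoding RNA genes (lincRNAs, 0.980% of those annotated) and 37 processed pseudogenes (0.376%), beside 0.472% of all genes. The promoters bound at 16 h only included 46 lincRNA genes (0.867%) and 11 processed pseudogenes (0.112%), beside 2.07% of all genes. Of the antisense transcripts 0.710% were 20 h only and 1.86% were 16 h only, and of the miRNA genes 0.364% and 1.28%. Mir133a-2, one of the muscle miRNA genes (chromosome 2, 180398379 to 180398482), singled out after its values were seen, had 3.11, 3.03 and 2.33 at 20 h. Many of these promoters share a peak with a neighbouring gene, since 17.3% of the 20 h only and 47.0% of the 16 h only genes have another TSS within 2 kb.

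The libraries of the other times were not used in choosing the members, and both groups had neighbours among them. Of the 1737 regions bound at 20 h only, 0.921%, 1.09% and 1.67% had a peak at 12 h, 51.3%, 54.2% and 52.4% at 24 h, 6.74%, 7.60% and 7.31% at 28 h, and 2.07%, 2.82% and 1.78% at 32 h. Their overlap was thus mainly with 24 h, and 377 of them (21.7%) had a peak in no library of another time, against 16 (1.69%) of the 16 h only regions. The lists of 24 h were also the longest of these times, with 13411 peaks on average, against 3560 at 12 h, 2491 at 28 h and 3886 at 32 h. How far list length accounts for the overlap was not tested. Of the 949 regions bound at 16 h only, 79.3%, 84.8% and 88.3% had a peak in the libraries of 12 h, 2.42%, 3.37% and 2.53% in those of 24 h, 13.6%, 13.4% and 13.6% in those of 28 h, and 85.0%, 86.4% and 76.4% in those of 32 h. The libraries of 12 h and 32 h lay far above those of 24 h and 28 h, and 602 of the regions (63.4%) had a peak in all 6 libraries of 12 h and 32 h. The promoter groups ran the same way, with 3.02% ± 2.37, 58.1% ± 4.35, 16.8% ± 1.27 and 5.77% ± 2.02 of the 20 h only promoters at 12, 24, 28 and 32 h (SD, n = 3 each). For the 16 h only promoters these shares were 89.6% ± 4.25, 1.20% ± 0.494, 15.2% ± 0.363 and 88.3% ± 6.21. The 298 regions bound at both times had a peak in 44.7%, 90.9%, 24.2% and 59.3% of cases on average at the same 4 times.

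**Figure D4:**
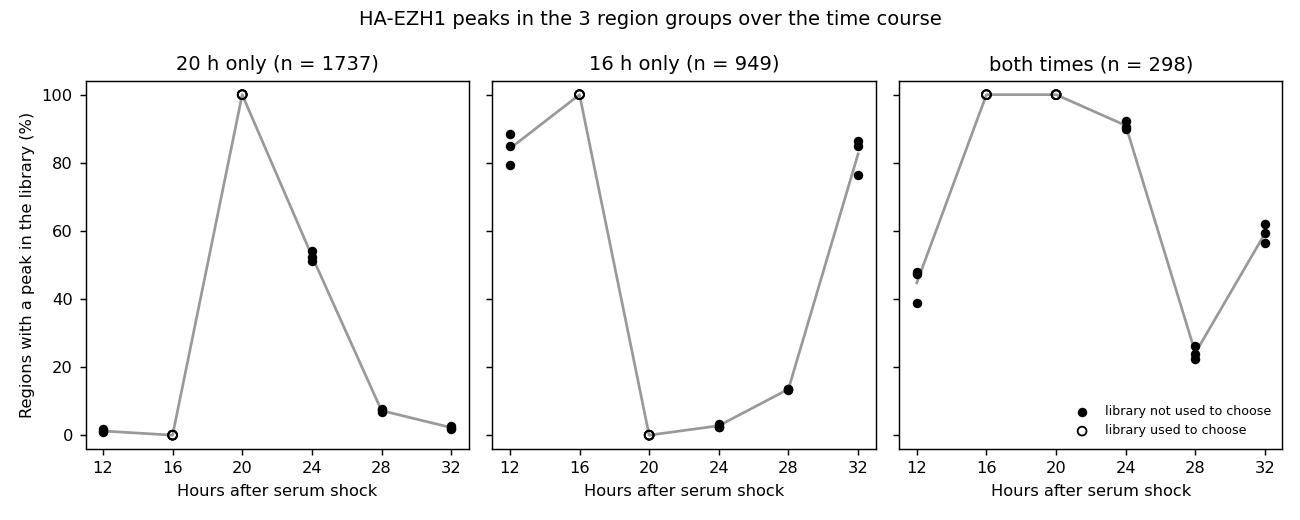
Share of regions with an HA-EZH1 peak in a library (%) by hours after serum shock, for the 20 h only, 16 h only and both groups, where filled points are libraries not used to choose the regions, open points those used, and the line joins means of 3. The 20 h only regions reach 51.3% to 54.2% in the libraries of 24 h and at most 7.60% in those of the other 3 times, while the 16 h only regions are at 76.4% to 88.3% at 12 h and 32 h and at most 13.6% at 24 h and 28 h.

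Over whole lists, the overlap of 2 libraries in bases (Jaccard index, shared bases over covered bases) averaged 0.180 among the 3 libraries of 20 h and 0.254 among those of 16 h. Between 20 h and 16 h it averaged 0.0486 over 9 pairs. The libraries of 20 h overlapped those of 24 h at 0.121, and the libraries of 16 h overlapped those of 12 h at 0.206 and those of 32 h at 0.214. The 20 h lists were thus more like those of 24 h, and the 16 h lists more like those of 12 h and 32 h, than the lists of 20 h and 16 h were like each other.

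The other profiles at 20 h and 16 h tell whether the regions carry Polycomb features measured separately. By the methods, Bio-EZH1 and SUZ12 were profiled in shEzh1 cells carrying BirA and EZH1α-Avi after double cross-linking, so they come from a different line from any of the HA lines. Of the regions bound by HA-EZH1 at 20 h only, 3.67% ± 0.133 had a Bio-EZH1 peak at 20 h and 3.19% ± 0.240 at 16 h (SD over 3 libraries). Of those bound at 16 h only, 40.9% ± 0.183 had one at 20 h and 40.6% at 16 h, where all 3 libraries gave the same share. Bio-EZH1 thus covered the 16 h only regions to a like extent at the time when HA-EZH1 had no peak there, beside 6.75% ± 0.386 of all regions at 20 h and 5.99% ± 0.0193 at 16 h. H3K27me3 covered 8.75% ± 0.264 of the 20 h only regions at 20 h and 9.81% ± 0.240 at 16 h, and 39.9% ± 0.219 of the 16 h only regions at 20 h and 40.9% ± 0.0608 at 16 h. It covered 16.98% ± 0.422 of all regions at 20 h and 19.93% ± 0.275 at 16 h. The 20 h only regions thus lay below all regions at both times, and the share of all regions was lower at 20 h too. SUZ12 covered 7.54% ± 0.435 of the 20 h only regions at 20 h and 12.6% ± 0.911 at 16 h, and 38.4% ± 0.852 of the 16 h only regions at 20 h and 41.7% ± 0.105 at 16 h. For SUZ12 the share was lower at 20 h in all regions too, with 11.5% ± 1.12 at 20 h and 18.1% ± 0.647 at 16 h.

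**Figure D5:**
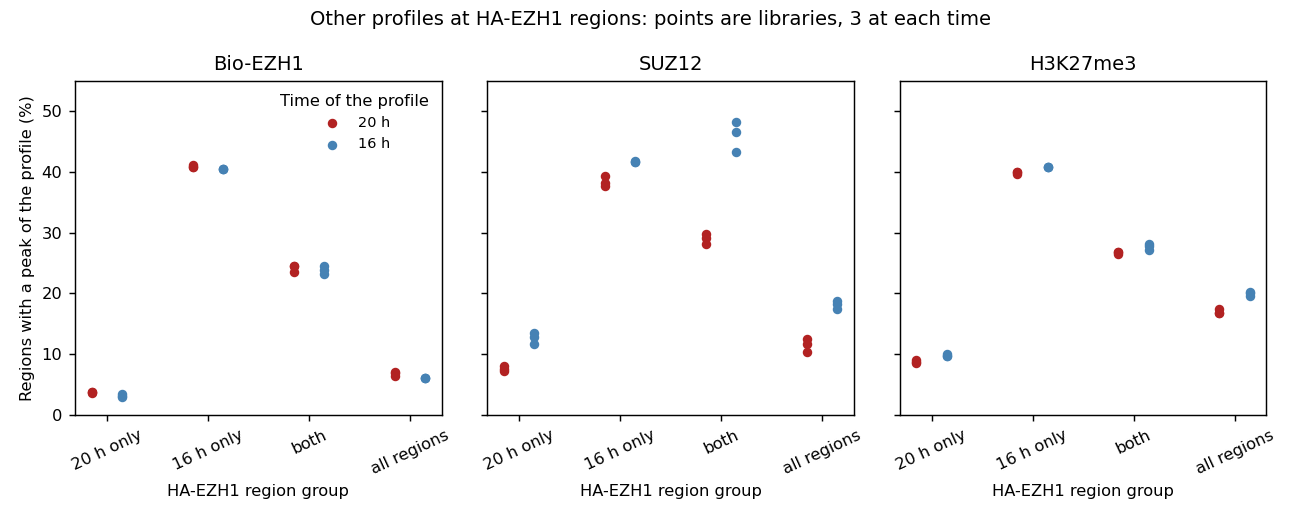
Share of HA-EZH1 regions (%) with a peak of Bio-EZH1, SUZ12 or H3K27me3, by region group and time of the profile (20 h left, 16 h right of each pair), where points are libraries. In the 20 h libraries 3.67% (Bio-EZH1) and 8.75% (H3K27me3) of the 20 h only regions carry the profile on average, against 40.9% and 39.9% of the 16 h only regions.

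The change between the times was also set beside that of Bio-EZH1. The log2 number of peaks differed by 1.18 between 20 h and 16 h for HA-EZH1 and by 0.03 for Bio-EZH1, and this difference of differences had p = 0.075 in an exact permutation test that exchanged times within each profile (400 arrangements, two-sided, adjusted p = 0.1 over 2 measures). The share of peaks within 3 kb of a TSS differed by -26.1 percentage points for HA-EZH1 and by -2.24 for Bio-EZH1, with p = 0.1 in the same exact test and an adjusted p of 0.1. Neither passed 0.05.

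Split by the 18 libraries of the other profiles at the 2 times, the promoters bound at 16 h only fell into 2 main classes. All 18 libraries had a peak at 356 of the 1114 promoters (32.0%), and none had one at 608 (54.6%), beside 3.23% and 69.6% of all genes. All 17 developmental transcription factor genes and all 9 Hox genes belonged to the class with all 18, as did Foxd1 and Pax7. The 14 mitochondrial ribosomal protein genes had 10 in the class with none and 0 in the class with all 18, and 4 of the 5 proteasome genes were in the class with none, as were Ctdsp2, Tcp11l1, Snx16, Nedd8 and Ccdc124. Both classes were bound to a like extent at 12 h and 32 h, with means of 89.8% in the class with all 18 and 89.7% in the class with none. At 28 h they stood at 6.37% and 17.3%. Of the 254 promoters bound at 20 h only, 10 (3.94%) had all 18 and 162 (63.8%) had none.

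Base composition separated the groups as well. In the 200 bp centred on the summit, the median GC content was 45.5% in the 20 h only regions and 67% in the 16 h only regions, beside 44% in all regions and 58.5% in the 200 bp around the TSS of all protein-coding genes. The ratio of observed to expected CpG dinucleotides had medians of 0.159 in the 20 h only regions and 0.843 in the 16 h only regions, beside 0.159 in all regions and 0.605 at all protein-coding promoters. The 16 h only regions beyond 3 kb of a TSS, 151 in number, had medians of 58% GC and 0.665 observed over expected. Within the 16 h only promoters of protein-coding genes, the median CpG ratio was 0.820 in the class with all 18 other libraries and 0.867 in the class with none.

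Short motifs were searched in the same 200 bp windows on both strands, each counted on its own even where it overlapped another. The GC box GGGCGG, which SP factors bind, was in 2.30% of the 20 h only regions and 46.5% of the 16 h only regions, beside 4.86% of all regions and 40.3% of protein-coding promoters. TGANTCA is the core that AP-1 factors bind with its middle base left free. It was in 13.5% of the 20 h only regions and 2.32% of the 16 h only regions, beside 9.09% of all regions. In windows 1 kb to either side of the 20 h only summits TGANTCA was in 6.56%. CAGCTG, the E-box of myogenic factors, was in 13.9% of the 20 h only regions, 9.97% of all regions and 8.18% of the windows to the sides, against 9.38% of the 16 h only regions. The clock E-box CACGTG was in 2.19% of the 20 h only and 3.90% of the 16 h only regions, beside 2.02% of all regions and 5.70% of protein-coding promoters. CCAAT, the box that NF-Y binds, was in 24.4% of the 20 h only and 14.6% of the 16 h only regions, beside 26.9% of all regions, and in 28.0% and 21.8% of the windows to the sides of each group. AACCACA, a core of RUNX factors, and CATTCCA were added after seeing the data. AACCACA was in 9.61% of the 20 h only and 2.53% of the 16 h only regions, beside 6.13% of all regions. CATTCCA was in 6.10% of the 20 h only and 1.79% of the 16 h only regions, beside 4.34% of all regions. In the windows to the sides of the 20 h only summits they were in 4.49% and 3.74%. A match is a string of letters in the window and says nothing of the factor.

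Longer words were also counted after seeing the data. Of all words of 10 fixed letters and 1 free inner letter, and among those in 0 of the 1898 windows to the sides of the 16 h only summits, ACTACAANTCC was in the most 16 h only regions. It matches a motif known from sites of ZNF143 in human. It was in 0.288% of the 20 h only regions and in 91 (9.59%) of the 16 h only regions, beside 0.593% of all regions and 0.942% of protein-coding promoters. Since this count chose it, the contrast of summits and sides is a description. The match lay at a median of 31 bp from the summit. By class, it was in 0 of the 269 protein-coding 16 h only promoters with a peak of all 18 other libraries and in 35 (7.38%) of the 474 with none. CCGGAAG, the ETS core, was in 6 (2.23%) of the same 269 and in 71 (14.98%) of the same 474, beside 9.66% of protein-coding promoters. The matches in the 4 regions of the 16 h only group with the highest fold enrichment among those that hold it are shown with their nearest genes, on the strand of the motif and with the match in capitals, to show the word in its setting.
Snx16, chr3:10440370-10440400, minus strand: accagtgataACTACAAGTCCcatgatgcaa
Nedd8, chr14:55672148-55672178, minus strand: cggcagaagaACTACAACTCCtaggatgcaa
9430015G10Rik, chr4:156109890-156109920, minus strand: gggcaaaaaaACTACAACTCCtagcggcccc
Ap2m1, chr16:20535420-20535450, minus strand: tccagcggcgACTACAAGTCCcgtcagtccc
Those 4 matches lay 49, 28, 15 and 93 bp from the summit of their region. The motif was also in 5 regions of the 20 h only group, the Pafah2 promoter among them. There the peak was missing at 16 h, present in 1 library of 24 h and present in all libraries of 12, 28 and 32 h.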

How the data were processed

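Narrow peak lists of 6 HA-EZH1 libraries (20 h and 16 h, 3 each) were analysed, with the lists of 12 other HA-EZH1 libraries and those of Bio-EZH1, SUZ12 and H3K27me3 at 20 h and 16 h. As the submitters' processing notes and the methods give it, the authors mapped reads to mm10 with BWA 0.7.17, removed duplicates with Picard, filtered with SAMtools 1.7 and called peaks per library with MACS2 2.2.4 at a q-value of 0.05 (broad peaks for H3K27me3). The control used for the HA libraries is not given in the sources used here, the 6 HA input samples have no list here, and the last peak number in each list exceeds its length by a filter that is not stated. The deposited fold enrichment is a ratio to local background, and the deposited significance is a −log10 q-value. Read depth is unknown, so no counting interval is given, and a missing peak says only that none was in the list.

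Peaks on the autosomes and the X chromosome were joined into regions where they overlapped by 1 bp, and the Y chromosome was left out. Promoters were the 3 kb on either side of the TSS of 53843 GENCODE M21 genes (21755 protein-coding) on the same chromosomes. A promoter's value is the fold enrichment of its strongest peak. Single values per library were compared by two-sided exact permutation tests. Genes were named by rule: the 8 protein-coding promoters with the highest mean fold enrichment in each group and the 4 in both, the 5 highest regions beyond 3 kb in each group, up to 4 members of each list, and Ezh1 with a set of clock genes and Ccnd1 whatever their values. Klhl41, Musk, Cavin4, Vcam1, Ifng, Mir133a-2 and the region clusters were chosen after their values were seen, as were the motifs AACCACA and ACTACAANTCC (by a count of words) and the alternatives with a fold enrichment minimum and without chromosome 15. The members and lists were chosen with earlier results of these data known. The list of cytosolic ribosomal protein genes is not reported here. Sequences came from GRCm38.p6 (RefSeq). Alternatives were a stricter q-value (0.01), equal peak numbers (the first by q-value), summits in place of overlap, regions joined across 500 bp, a 1 kb window, protein-coding or isolated TSSs only, each library left out and the replicate block. Scripts were tested on simulated data, and ran in Python 3.11.15 with numpy 2.4.6, pandas 2.3.3, pysam 0.24.0 and matplotlib 3.10.9.

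Replicate numbers were checked for pairing by the correlation of log2 fold enrichment deviations over the 298 regions bound at both times, which was -0.00823, 0.0583 and 0.0975 between libraries of the same number. The numbers were therefore not taken as pairs.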

Additional observations from a re-analysis of the deposited data

Results flagged for a closer look

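No comparison used the peaks called on mitochondrial DNA. Each of the 3 HA-EZH1 lists of 20 h held 1 such peak, against 0 in each of the 3 lists of 16 h and 0 in the 12 lists of the other times.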

How the results depend on the processing

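No difference per library and no named promoter reversed its direction under any alternative, but the order of the 2 region counts did. With the same number of peaks (4621) in each library, 663 regions were 20 h only and 963 were 16 h only, 112 promoters were 20 h only, and the differences in median peak length and median fold enrichment were 155 bp and 0.784, against 23 bp and 0.312 with all peaks. A promoter window of 1 kb left 133 promoters bound at 20 h only, and protein-coding genes alone left 68. Genes with a TSS over 2 kb from every other one gave 590 promoters bound at 16 h only. A fold enrichment of at least 2.45, chosen after seeing the data, left 504 regions and 572 promoters bound at 16 h only, with a difference in median fold enrichment of 0.146. Leaving out 1 library at a time moved the regions bound at 20 h only between 1840 and 3158 (without replicate 3 of 20 h 3158, without replicate 1 of 20 h 2793) and the promoters bound at 20 h only between 276 and 398 (without replicate 3 of 20 h 398), since a rule on fewer libraries admits more sites. With the replicate block, the differences were 6759 peaks, -26.1 percentage points within 3 kb and -1161 promoters, each with an exact sign-flip p of 0.25, the smallest that 3 pairs allow. Of 16 named promoters, 13 had the same value under every setting, and Tm4sf1, Ear14 and Bahcc1 depended on the window or on the summit. Of the 20 h only regions, 42.2% rather than 52.7% had a peak at 24 h with equal peak numbers. A missing peak may lie just under the caller's threshold, and the lists do not hold signal there.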
